A study of Sus scrofa with 8 samples.

Results

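A set of 10 genes of blood vessel growth and endothelial identity were followed in pig lung: the ligands VEGFA, ANGPT1 and ANGPT2, the receptors FLT1, KDR and TEK, the surface and junction proteins PECAM1 and CDH5, the secreted protein VWF and the transcription factor ERG. Their members were all non-control probes that carried one of these 10 gene symbols, in the study's own probe tables or through the RefSeq transcript that the probe targets, and whose signal was well above background somewhere. This found all 10 genes, of 3830 named genes with a probe above background, and 19 of the 34406 probes that were above background somewhere, and of the 43603 probes in all; no probe of the 10 genes was lost to the background filter, and each of the 19 was well above background on all 8 arrays. VEGFA and PECAM1 had 3 probes each, TEK had 4, CDH5 and ERG had 2 each, and FLT1, KDR, ANGPT1, ANGPT2 and VWF had 1 each. For 9 probes the target was a RefSeq transcript; the other 10 were named only by the study's tables.

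The lungs came from female pigs of the Tibetan and the Duroc breed, harvested at 6 months of age, with 1 pig per array and 2 pigs per group. Tibetan pigs raised at 3500 m are called TH and Duroc pigs raised at 40 m are called DL; both stayed where their population lived. Tibetan pigs moved to 40 m at 1 month of age (TL) and Duroc pigs moved to 3500 m at that age (DH) complete the design, so that every migrated pig also differed from its resident counterpart by the move. Total RNA of whole lung tissue was labelled with Cy3 and hybridized to 1-colour Agilent porcine arrays. The p-values therefore rest only on the spread between pigs of the same group, 2 in each of the 4 groups. This spread was pooled over the groups. In limma's fit, described below, the spread of each probe was also drawn toward that of all tested probes.

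In blood vessels, VEGFA is the growth factor that drives endothelial growth and permeability, KDR is its main signalling receptor, and FLT1 binds the same ligand tightly and can act as a decoy. ANGPT1, made largely by cells around the endothelium, activates the endothelial receptor TEK and stabilises vessels, while ANGPT2, released by endothelial cells, can oppose it. PECAM1, CDH5, VWF and ERG mark endothelial cells: PECAM1 is an adhesion protein shared with platelets and leukocytes, CDH5 is the cadherin of endothelial junctions, VWF binds platelets and is stored by endothelial cells and megakaryocytes, and ERG is a transcription factor that maintains endothelial identity.

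Values below are the deposited log2 values, which the authors had brought to 1 common distribution on all arrays. The arrays of 1 group correlated at 0.981 to 0.994 over the tested probes, arrays of different groups other than TL at 0.961 to 0.967, and the TL arrays with all others at 0.918 to 0.941. The TL arrays were also brighter before normalization, with median raw signals of 324 and 333.5 against 207.5 to 230 on the other arrays, and the share of this in the TL values was not tested. TH and DL were hybridized on one slide and DH and TL on the other. The slide is therefore the same contrast as the breed by altitude interaction. Resident against migrated pigs is this contrast as well, since TH and DL stayed and DH and TL were moved. In every difference between 2 groups that lie on different slides, slide, move and group cannot be told apart. The breed and altitude effects, each balanced over the slides and over the move, do not share this limit. The altitude effect has another limit. The paper names 1 site for each altitude, in Yunnan for high and in Guangdong for low altitude. Site and altitude therefore cannot be told apart in any altitude difference below. The brighter TL arrays enter both the breed and the altitude effect. At the 19 probes, both arrays of a group differed by a median of 0.034 on the log2 scale and by at most 0.20, against a median of 0.057 over all tested probes. A further 41 probes were spotted repeatedly, and their processed signals were scaled to each array's 75th percentile. Their spots on the same array differed by a median of 0.0509, and their spots on both arrays of a group by 0.0511. At these probes the spread between pigs was thus about as small as that between spots of 1 array. None of these probes was saturated, but 4 bright probes (2 of PECAM1 and 1 each of CDH5 and VWF) were read from the low-gain scan on all 8 arrays, and the brightest TEK probe was read from it on both DL arrays and on no other.

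All 34406 probes were fitted with limma, with terms for breed, for altitude and for the interaction of both, and a difference was called at a Benjamini-Hochberg adjusted p below 0.0001, the threshold of the study's methods. The breed effect is the Tibetan minus Duroc difference averaged over both altitudes. It was called at 9 of the 19 probes, 2 higher and 7 lower in Tibetan pigs, where 12.8% of all tested probes were called higher and 14.6% lower. The altitude effect, high minus low averaged over both breeds, was called higher at 1 probe and lower at 9, against 14% and 12.2% of all probes. The interaction, which is the altitude difference in Tibetan pigs minus that in Duroc pigs, was called in the positive direction at 5 probes and in the negative at 1, against 14.9% and 13.5%. Lower values at high altitude were thus called at a larger share of these probes than of all probes, and the calls of the breed effect also leaned to the lower side. The altitude calls fell in 5 of the 10 genes, with repeated calls at VEGFA, TEK and CDH5. Those at VEGFA and TEK were all lower. The CDH5 calls ran in opposite directions, -0.36 at A_72_P077856 and 0.35 at A_72_P310398. Many of all probes were not above background on all 8 arrays, as the 19 were. In a fit of the 24775 such probes, altitude was called at 12118, 6729 of them higher. Of the 19, 3 were called higher and 9 lower there. For the breed effect 12017 were called, 4808 of them higher, and of the 19, 4 higher and 11 lower.

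Within Tibetan pigs, TH minus TL was called higher at 3 probes and lower at 7, against 20.5% and 16.6% of all probes. Within Duroc pigs, DH minus DL was called at 1 probe, which was lower, and limma called 0 higher (5.83% of all probes were called higher and 4.12% lower); at an unadjusted p below 0.05 there were 5 higher and 11 lower, against 31.4% and 32.5% of all probes, and the two-way ANOVA without moderation also called 1 lower and 0 higher. At high altitude, TH minus DH was likewise called at 1 probe, lower in TH, with 0 called higher by limma (4.17% of all probes higher, 5.16% lower). Here 5 were higher and 13 lower at an unadjusted p below 0.05, against 30.3% and 32.8% of all probes, and the ANOVA called 0 in either direction. At low altitude, TL minus DL was called higher at 3 probes and lower at 6, against 16% and 21.5%. The medians over the 19 probes were -0.25 for the breed effect and -0.36 for the altitude effect, beside -0.07 and 0.01 over all tested probes.

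The scaling of the arrays moved these splits. With Agilent's processed signals scaled to each array's 75th percentile in place of the common distribution, the altitude effect was called higher at 4 probes and lower at 6, where 19.7% of all probes were called higher and 10.7% lower. TH minus TL was called higher at 7 and lower at 5 (26.6% and 15.7% of all probes), and the interaction at 5 and 3 (19.1% and 13.4%). TH minus DH was called higher at 1 and lower at 2 (4.69% and 5.51%), and TL minus DL at 2 and 13 (16.6% and 27.6%). The same scaling raised the median of all tested probes from 0.21 to 0.34 for the interaction and from 0.11 to 0.25 for TH minus TL. Relative to that median, 7 of the 19 probes were above it in TH minus TL under the deposited values and 9 under the 75th percentile. The move was largest for bright probes: over the 7611 probes with a mean of 12 or more, 8 of them of the genes here, the median of TH minus TL was 0.08 under the deposited values and 0.65 under the 75th percentile. The breed effect and TH minus DH had the same sign at all 19 probes under both scalings.

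With 2 arrays per group, the threshold was also sensitive to single arrays. Of the 46 calls made over the 7 comparisons, none changed direction when any 1 array was left out, but most were lost in each of these fits. Each such fit leaves a group with 1 array, and the calls over all tested probes also became fewer in every comparison.

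VEGFA was lower at high than at low altitude in both breeds, at all 3 of its probes. At its brightest probe, A_72_P414353, the log2 values were 11.70 and 11.69 in TH, 12.34 and 12.36 in TL, 11.61 and 11.65 in DH, and 11.95 and 11.98 in DL. No array at high altitude reached the lowest array at low altitude. The altitude effect there was -0.49 ± 0.019 (SE), a 1.41-fold difference with an adjusted p of 1.6e-05 in limma's fit. Since lung tissue was measured in bulk, fewer cells of a type and less RNA per cell cannot be told apart here or in any result that follows.

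The other VEGFA probes had the same direction. Probe A_72_P116846 stood at 10.06 and 9.95 in TH, 10.70 and 10.66 in TL, 9.67 and 9.67 in DH and 10.23 and 10.23 in DL. Its altitude effect was -0.62 (limma adjusted p = 3.2e-05). Probe A_72_P322698, designed to another transcript model, stood at 9.10 and 9.04 in TH, 10.23 and 10.17 in TL, 8.64 and 8.60 in DH and 9.06 and 9.05 in DL. Its altitude effect was -0.78 (limma adjusted p = 9.9e-06). TL was the highest group and DH the lowest at every VEGFA probe, although at the third probe the TH and DL arrays overlapped.

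Within each breed the VEGFA difference was -0.65, -0.68 and -1.13 in Tibetan pigs and -0.33, -0.56 and -0.44 in Duroc pigs, in the order in which the probes were introduced. The 3 Tibetan differences were called and the Duroc ones were not, with adjusted p from 0.00028 to 0.00036. That contrast between the breeds was itself not called: the interactions were -0.32, -0.12 and -0.69 with adjusted p of 0.00091, 0.13 and 0.00014. Under 75th percentile scaling the altitude effects remained called at -0.35, -0.63 and -0.80, while the interaction of the brightest probe turned to 0.08. With raw spot signals and a normexp background correction they were -0.53, -0.60 and -0.76, of which the last was called. With single arrays left out they kept their sign, and their adjusted p rose to at most 0.0004.

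The breed effect of VEGFA was above 0 at the 3 probes, at 0.22, 0.40 and 0.79, and was called at A_72_P322698 alone, with an adjusted p of 8.4e-06. Under 75th percentile scaling it was 0.045 at the brightest probe (adjusted p = 0.089), where the called TL minus DL went from 0.38 to 0.0032.

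**Figure D1:**
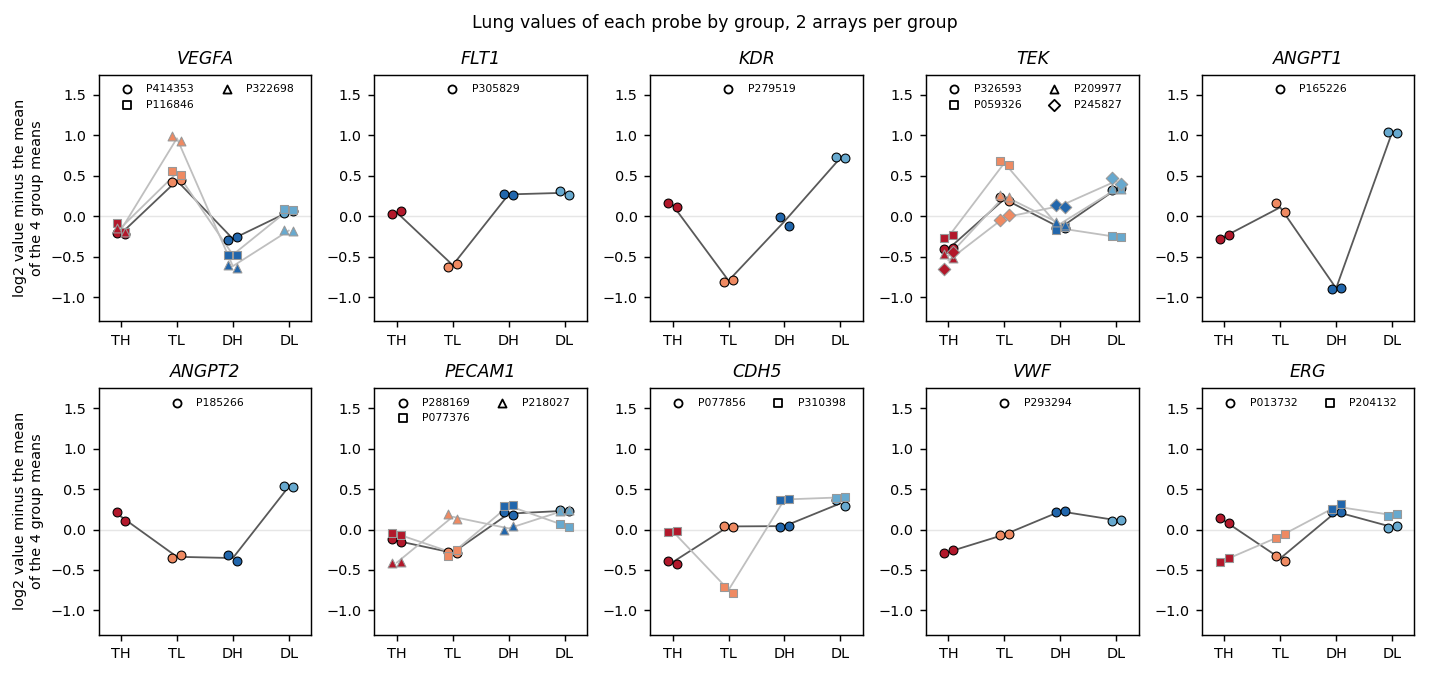
Log2 values of the 19 probes in TH, TL, DH and DL, 1 panel per gene, each probe centred on the mean of its 4 group means. Every point is 1 array (2 per group), symbols mark the probes by the last part of their name, lines join group means and the dark line is the brightest probe; VEGFA is highest in TL and lowest in DH at all 3 probes, while the probes of TEK, PECAM1, CDH5 and ERG differ in shape.

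The angiopoietins, the ligands of TEK, were both lower at high altitude in Duroc pigs. In Tibetan pigs they differed in opposite directions, and neither of those differences was called. ANGPT1 had the largest difference of the 19 probes: its values were 11.25 and 11.30 in TH, 11.69 and 11.59 in TL, 10.63 and 10.65 in DH and 12.57 and 12.55 in DL. The 4 groups did not overlap, and the Duroc groups held both ends of the range. In Duroc pigs it was 3.79-fold lower at high altitude, a log2 difference of -1.92 (95% interval -2.04 to -1.81, limma adjusted p = 1.7e-05). In Tibetan pigs the difference had the same sign and was smaller, at -0.36 with an adjusted p of 0.00085, which was not called.

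The altitude effect of ANGPT1 was -1.14 and its interaction 1.56, both called, with adjusted p of 6.4e-06 and 1.5e-05 in limma's fit. Under 75th percentile scaling DH minus DL was -2.04 and under the raw signals -1.93, called in both. With an array left out its adjusted p was 0.00017 to 0.00037, past the threshold in none of these fits, and the value stayed between -1.93 and -1.91.

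ANGPT2 was at 11.88 and 11.77 in TH, 11.31 and 11.35 in TL, 11.36 and 11.28 in DH and 12.20 and 12.19 in DL. DL was the highest group, TH came next, and TL and DH overlapped. In Tibetan lungs ANGPT2 was 0.50 higher at high altitude (adjusted p = 0.00035), and in Duroc lungs 0.88 lower (adjusted p = 0.0001022, just above the threshold). These opposite differences gave an interaction of 1.38 ± 0.069 (SE), called at 3.3e-05 by limma and called again under 75th percentile scaling (1.63) and from raw signals (1.33). It kept its sign without any 1 array, with adjusted p of 0.00014 to 0.00044.

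On each array, the log2 difference ANGPT2 minus ANGPT1 measures how unequally the pair moved; it was chosen after its values were seen and was not tested. Taken relative to its mean over the groups, it was 0.49 and 0.33 in TH and 0.58 and 0.49 in DH, against -0.52 and -0.38 in TL and -0.51 and -0.50 in DL. All 4 arrays at high altitude lay above all 4 at low altitude, by 0.95 on average or 1.93-fold. It was 0.97 under 75th percentile scaling, and with 1 array left out it lay between 0.91 and 0.99.

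**Figure D2:**
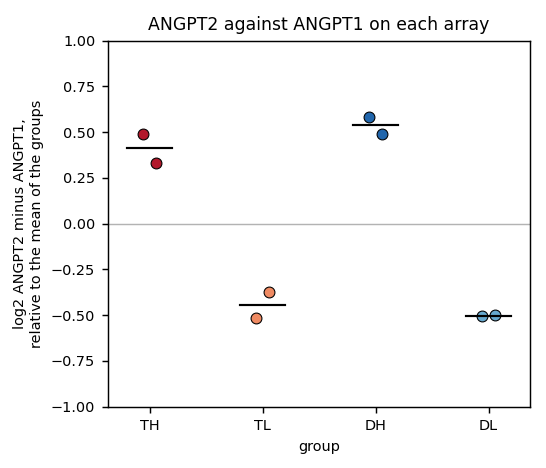
Log2 ANGPT2 minus ANGPT1 on each of the 8 arrays, relative to the mean of the 4 groups, by group. Points are arrays (2 per group) and bars are group means; TH and DH lie above 0 and TL and DL below it.

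Among the receptors, both VEGFA receptors were lowest in TL. KDR was at 10.13 and 10.09 in TH, 9.16 and 9.19 in TL, 9.97 and 9.85 in DH and 10.70 and 10.69 in DL. The groups did not overlap, and their order was DL, TH, DH and TL. KDR was 1.91-fold higher in TH than in TL (0.93 ± 0.046, SE, adjusted p = 2.4e-05) and 1.72-fold lower in DH than in DL (-0.78, adjusted p = 0.00012, not called). The interaction of 1.72 was the largest of the 19 probes. It was called by limma at 1.3e-05, under 75th percentile scaling (1.52) and from raw signals (1.56), whereas the altitude effect averaged over the breeds was 0.08 and turned to -0.05 under 75th percentile scaling. Without single arrays the interaction lay between 1.66 and 1.78 and was called in 2 of the 8 fits, those without either DH array.

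FLT1 was at 8.57 and 8.61 in TH, 7.92 and 7.95 in TL, 8.82 and 8.80 in DH and 8.85 and 8.81 in DL. DH and DL overlapped, and TL lay below every other array. FLT1 was 1.57-fold higher in TH than in TL (0.65, adjusted p = 2.2e-05), and DH minus DL was -0.02 with a 95% interval of -0.10 to 0.06, a difference not detectable with this number of arrays. The interaction was 0.67 with an adjusted p of 9.4e-05. It fell to 0.25 under 75th percentile scaling, where its adjusted p was 0.0029, and to 0.53 from raw signals with an adjusted p of 0.0039; without single arrays it was called in none of the 8 fits.

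Averaged over both altitudes, the breed effect was -0.56 for FLT1 (adjusted p = 1.6e-05) and -0.66 for KDR (adjusted p = 3.3e-05), and both stayed called under 75th percentile scaling at -0.34 and -0.53. From raw signals they were -0.51 and -0.62 with adjusted p of 0.00027 and 0.00011. For KDR the sign differed between the altitudes: TL minus DL was -1.52 and called, while TH minus DH was 0.20 and not called (adjusted p = 0.015).

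For TEK, the angiopoietin receptor, the altitude effect averaged over both breeds was below 0 at its 4 probes and called at 3. Its brightest probe, A_72_P326593, was at 13.46 and 13.47 in TH, 14.10 and 14.06 in TL, 13.72 and 13.73 in DH and 14.19 and 14.22 in DL. Probe A_72_P209977 was at 12.49 and 12.44 in TH, 13.21 and 13.19 in TL, 12.88 and 12.84 in DH and 13.29 and 13.29 in DL. At both, the order was DL, TL, DH and TH with no overlap. The altitude effects were -0.55 and -0.58, called with an adjusted p of 1.2e-05 each.

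The dimmer TEK probes differed from these in the order of the groups. Probe A_72_P245827 was at 6.67 and 6.87 in TH, 7.27 and 7.33 in TL, 7.45 and 7.43 in DH and 7.79 and 7.71 in DL. It had the widest spread of the 19 probes and an altitude effect of -0.42 that was not called (adjusted p = 0.0011). At A_72_P059326, TL stood apart, with 9.14 and 9.10 against 8.19 and 8.23 in TH, 8.30 and 8.33 in DH and 8.21 and 8.20 in DL. This probe had an altitude effect of -0.40 (adjusted p = 4.0e-05), with TH minus TL at -0.91 and DH minus DL at 0.11, and was the 1 TEK probe with a called interaction, -1.02 (adjusted p = 1.7e-05), and the 1 with a higher value in Tibetan pigs (breed effect 0.41, adjusted p = 3.7e-05).

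The sign of the TEK altitude effect was the same at all 4 probes under 75th percentile scaling (-0.21 to -0.49), but TH minus TL of the brightest probe went from -0.61 to 0.01 there, and the interaction of the 2 brighter probes turned from -0.14 and -0.31 to 0.45 and 0.20. The called interaction of A_72_P059326 was -1.38 under 75th percentile scaling and -0.96 from raw signals, called in both. Without single arrays it stayed between -1.04 and -0.995, with adjusted p from 0.00016 to 0.00024.

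**Figure D3:**
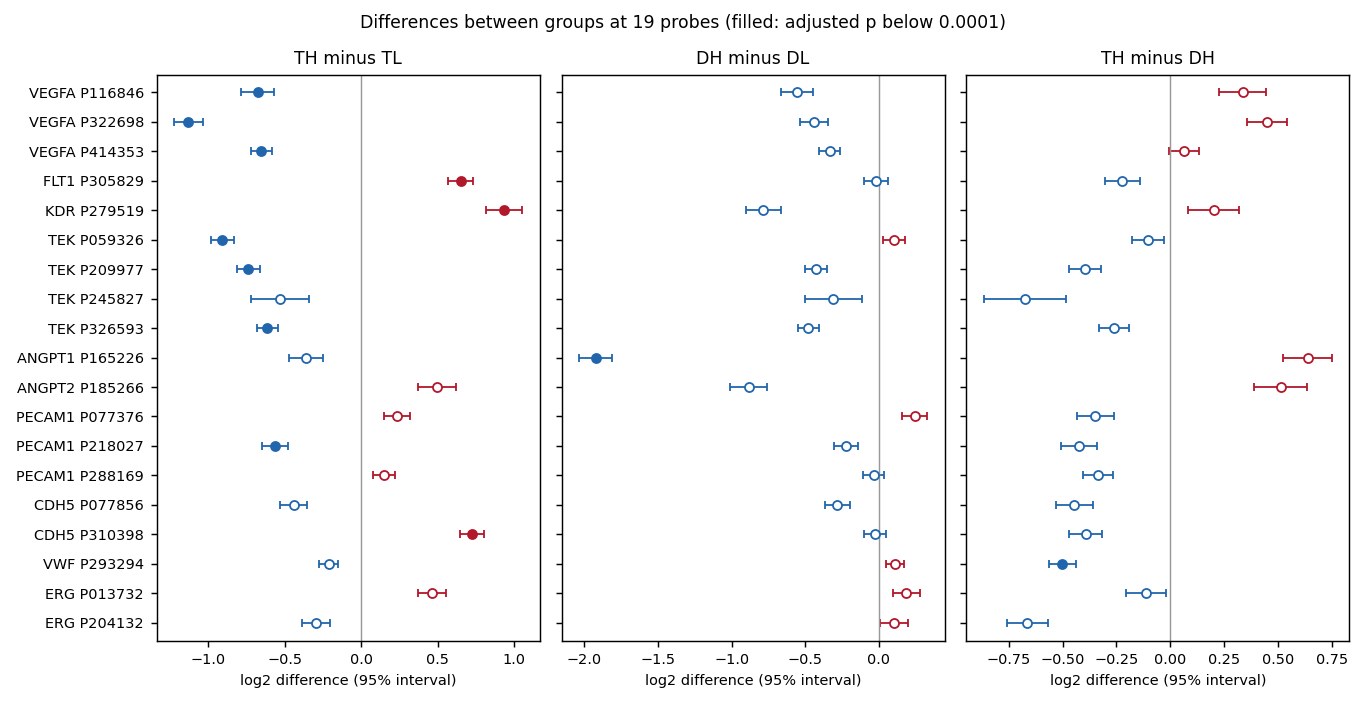
Log2 differences TH minus TL, DH minus DL and TH minus DH at the 19 probes, with 95% intervals from limma's fit; filled points have an adjusted p below 0.0001 and red points are above 0. In TH minus DH, the probes of TEK, PECAM1, CDH5, VWF, ERG and FLT1 lie below 0 and those of VEGFA, KDR, ANGPT1 and ANGPT2 above it; the left panel changes most with scaling, and TEK A_72_P326593, PECAM1 A_72_P218027, CDH5 A_72_P077856 and VWF change sign there under the 75th percentile.

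The breed effect of the endothelial surface and junction genes PECAM1 and CDH5 was below 0 at all 5 probes and called at 3. The brightest PECAM1 probe, A_72_P288169, was at 16.88 and 16.84 in TH, 16.71 and 16.71 in TL, 17.21 and 17.18 in DH and 17.24 and 17.22 in DL. No Tibetan array reached a Duroc array. Its breed effect was -0.43 ± 0.019 (SE), 1.34-fold, with an adjusted p of 2.5e-05, and it was -0.76 under 75th percentile scaling and -0.38 from raw signals (adjusted p = 0.00065). Without single arrays its adjusted p was 0.00019 to 0.00035.

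The other PECAM1 probes, both designed to 1 RefSeq transcript, had breed effects of -0.34 (A_72_P077376) and -0.25 (A_72_P218027), neither called. Their altitude differences ran in opposite directions. A_72_P077376 was at 13.66 and 13.62 in TH, 13.37 and 13.44 in TL, 13.98 and 13.99 in DH and 13.76 and 13.73 in DL, higher at high altitude in both breeds. A_72_P218027 was at 15.27 and 15.28 in TH, 15.87 and 15.81 in TL, 15.67 and 15.72 in DH and 15.91 and 15.92 in DL, lower at high altitude in both breeds. TH minus TL was 0.23 (adjusted p = 0.0017) at the first and -0.57 (adjusted p = 4.3e-05) at the second. Under 75th percentile scaling they were 0.79 and 0.18, so that the direction of PECAM1 with altitude rests on the probe and on the scaling.

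CDH5 differed between probes of 1 RefSeq transcript in the same way. At its brightest probe, A_72_P077856, the values were 15.90 and 15.86 in TH, 16.33 and 16.32 in TL, 16.32 and 16.33 in DH and 16.64 and 16.57 in DL. TL and DH overlapped, DL was highest and TH lowest. At A_72_P310398 they were 9.51 and 9.52 in TH, 8.82 and 8.76 in TL, 9.90 and 9.92 in DH and 9.93 and 9.94 in DL, with TL lowest.

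Both CDH5 probes were lower in Tibetan pigs, with called breed effects of -0.36 (adjusted p = 9.0e-05) and -0.77 (adjusted p = 5.5e-06) that stayed called under 75th percentile scaling (-0.71 and -0.60). From raw signals the first was -0.33 with an adjusted p of 0.0009 and the second was called at -0.75. With altitude they parted. The altitude effect was -0.36 at the brightest probe (adjusted p = 9.7e-05) and 0.35 at the other (adjusted p = 7.0e-05), and under 75th percentile scaling the first turned to 0.12 and the second was 0.23 with an adjusted p of 0.00029. The interaction of A_72_P310398 was 0.75 (adjusted p = 5.1e-05), and 0.43 with an adjusted p of 0.00032 under 75th percentile scaling. TL minus DL at A_72_P310398, a difference of -1.14 or 2.21-fold, was the 1 call of the 46 that held with each array left out; its adjusted p was then at most 8.8e-05.

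VWF was at 16.01 and 16.04 in TH, 16.23 and 16.24 in TL, 16.52 and 16.53 in DH and 16.41 and 16.42 in DL. The 4 groups did not overlap, with TH lowest and DH highest. TH minus DH was -0.50 ± 0.025 (SE), a 1.42-fold difference with an adjusted p of 7.6e-05, and VWF was the 1 probe of the 19 called in that comparison. It was called under 75th percentile scaling (-0.59) but not from raw signals (-0.48, adjusted p = 0.00048), and without single arrays its adjusted p was 0.00059 to 0.001. The breed effect was -0.34 with an adjusted p of 3.7e-05, and -0.71 and -0.29 under the same alternatives.

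The altitude effect of VWF was small under the deposited values, -0.05, and was 0.43 and called under 75th percentile scaling, with TH minus TL going from -0.21 to 0.55. Of the platelet markers PF4, PPBP, ITGA2B and GP9, PPBP and ITGA2B had a named probe, and the log2 of their summed level was 12.03 to 12.04 in TH, 12.61 to 12.62 in TL, 13.09 to 13.13 in DH and 12.76 to 12.78 in DL. The order of the sum was not that of each marker: ITGA2B had means of 11.57 (TH), 10.94 (TL), 11.40 (DH) and 11.60 (DL), and the brighter PPBP probe 10.17, 12.07, 12.58 and 11.92 in the same order of groups. Neither marker was at background on any array, and their part in the VWF result was not tested.

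ERG had a bright and a dim probe. At A_72_P013732 the values were 13.41 and 13.35 in TH, 12.95 and 12.89 in TL, 13.49 and 13.50 in DH and 13.29 and 13.33 in DL; at A_72_P204132 they were 7.58 and 7.62 in TH, 7.87 and 7.92 in TL, 8.23 and 8.29 in DH and 8.15 and 8.17 in DL. DH was highest at both, and the lowest group was TL at the first and TH at the second. The breed effects were -0.25 (adjusted p = 0.00048) and -0.46 (adjusted p = 4.9e-05). The second was called, but was -0.22 with an adjusted p of 0.00055 under 75th percentile scaling, and up to 0.00054 without single arrays. TH minus TL was 0.46 at the bright probe and -0.30 at the dim one, neither called; under 75th percentile scaling both were called, at 0.96 and -0.58.

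**Figure D4:**
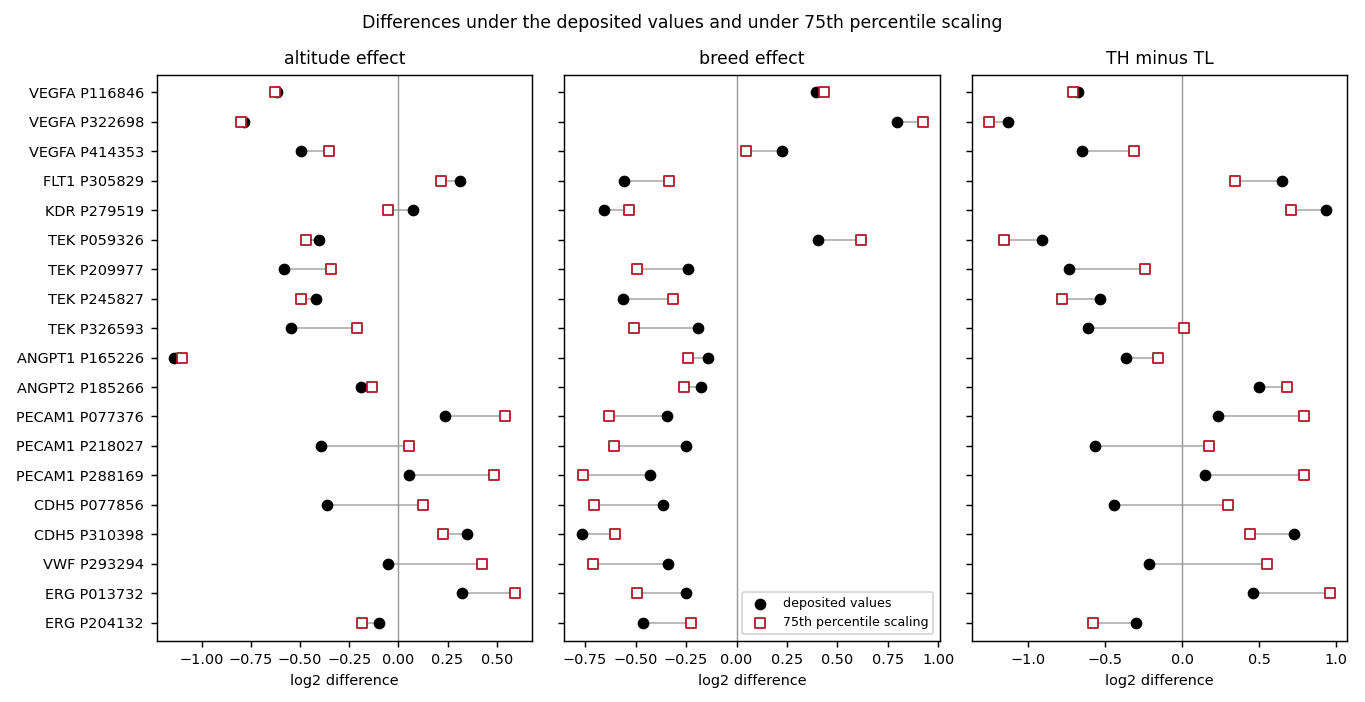
Altitude effect, breed effect and TH minus TL on the log2 scale at the 19 probes, from the deposited values (filled circles) and from processed signals scaled to each array's 75th percentile (open squares). The breed effect keeps its sign at all 19 probes, the altitude effect at 15 and TH minus TL at 15.

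At high altitude, TH minus DH was below 0 at 13 probes, all those of FLT1, TEK, PECAM1, CDH5, VWF and ERG, and above 0 at 6, all those of VEGFA, KDR, ANGPT1 and ANGPT2. The median was -0.26 over the 19 probes and -0.01 over all tested probes. At an adjusted p below 0.05, 18 of the 19 passed in limma's fit (58.9% of all tested probes did), the exception being the brightest VEGFA probe. None of the 19 signs changed in any of the alternatives tried, single arrays left out included. ANGPT1 and ANGPT2 had the highest positive values, 0.64 and 0.51, and TEK A_72_P245827 and ERG A_72_P204132 the lowest, -0.67 and -0.66, with adjusted p of 0.00022, 0.00064, 0.0011 and 0.0001041. TH and DH lay on different slides, and DH pigs had been moved while TH pigs had not. Slide, move and breed thus cannot be told apart in this comparison.

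Over the 4 groups, DL held the highest mean at 11 of the 19 probes, where it was highest at 27.3% of all tested probes. TH was highest at none of them, against 24.7% of all probes, and lowest at 7, against 20.5%. TL was lowest at 6, against 42.9%. TL was the group farthest from the other 3 at 9 of the 19 probes, against 52.6% of all tested probes.

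Other genes of endothelium and angiogenesis were taken as a list of 54, of which 25 had a named probe above background, 46 probes in all. NRP1 had 6 of these probes and CALCRL 5, so that the counts below are of probes and not of genes. Shares of all tested probes, called higher and lower, are given in brackets. TH minus DH was called higher at 1 of the 46 probes and lower at 12 (4.17% and 5.16%), with a median of -0.37 beside -0.01 over all tested probes. Under 75th percentile scaling it was called at 1 and 11 (4.69% and 5.51%). For the breed effect 7 were called higher and 14 lower (12.8% and 14.6%), and for the altitude effect 7 and 14 (14% and 12.2%). The interaction was called at 4 and 10 (14.9% and 13.5%) and TH minus TL at 8 and 13 (20.5% and 16.6%). DH minus DL was called at 7 and 3 (5.83% and 4.12%), and TL minus DL at 10 and 14 (16% and 21.5%). Under 75th percentile scaling the altitude effect split 12 and 8 (19.7% and 10.7%). The interaction then split 14 and 9 (19.1% and 13.4%) and TH minus TL 13 and 11 (26.6% and 15.7%). The medians of the list went from -0.23 to -0.13 for the altitude effect, from 0.03 to 0.11 for the interaction and from -0.31 to 0.10 for TH minus TL. Those of all tested probes went from 0.01 to 0.07, from 0.21 to 0.34 and from 0.11 to 0.25.

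The 3 probes of the list with the smallest adjusted p of the interaction in each direction belonged to SOX18, PROX1 and SOX17 on the positive side and to NRP1 (2 probes) and FLI1 on the negative side. SOX18 and SOX17 had 1 probe each, PROX1 and FLI1 had 3 each and NRP1 had 6. SOX18 and SOX17, transcription factors of vascular development, had means of 9.28 and 7.16 in TL, lower than the 11.14 and 8.87 in TH, 10.93 and 8.74 in DH and 11.08 and 9.11 in DL. Their interactions were 2.01 and 2.09. PROX1 probe A_72_P396448, for a transcription factor of lymphatic endothelium, had means of 11.28 (TH), 10.39 (TL), 10.44 (DH) and 11.61 (DL) and an interaction of 2.06. Its other probes had interactions of 1.73 (A_72_P147931) and -0.56 (A_72_P321423), so that the probes of PROX1 differed in direction.

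NRP1 is a co-receptor of VEGFA, and FLI1 is a transcription factor of the same family as ERG. NRP1 probe A_72_P134241 had means of 6.20 (TH), 8.26 (TL), 7.70 (DH) and 6.20 (DL), and A_72_P000746 had 7.76, 10.48, 8.59 and 6.94 in the same order. TL had the highest mean at these and at 4 of the 6 NRP1 probes in all, and the interaction was below 0 at those 4. Of them, A_72_P038916 was above background on only 2 of the 8 arrays. A_72_P233582 had means of 9.24 in TL and 9.21 in DH, with an SD of 0.50 in TH. Its interaction was not called (adjusted p = 0.001 in limma's fit). The interaction was 0.14 at A_72_P413413 and 0.35 at A_72_P382768. The latter was the brightest NRP1 probe and was highest in DL, with a mean of 10.05, against 9.67 in TL. FLI1 probe A_72_P261717 had means of 8.97 (TH), 12.35 (TL), 9.85 (DH) and 8.40 (DL), which gave an interaction of -4.82, and TL was highest at all 3 FLI1 probes. The 6 interactions by which these probes were chosen had adjusted p of 3.2e-06 or less in limma's fit and kept their sign and their call under 75th percentile scaling.

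Marker genes of other lung cells also differed between the groups, and their part in the results on the 10 genes was not tested. Of the leukocyte markers PTPRC, CD3E, CD68, LYZ and ITGAM, 2 had a named probe, and the log2 of their summed level ran from 14.11 to 14.13 in TH, 15.58 to 15.62 in TL, 16.02 to 16.05 in DH and 17.46 to 17.47 in DL. That sum followed LYZ, whereas CD3E was highest in TH, at 12.64. The smooth muscle and pericyte list had 5 of 7 genes and summed to 17.49 to 17.53 in TH, TL and DH and to 17.79 and 17.80 in DL. Within it RGS5, a pericyte gene, had means of 12.92 (TH), 8.51 (TL), 10.28 (DH) and 8.45 (DL). The fibroblast list had 3 of 4 genes and summed to 16.92 to 16.93 in TH, 17.28 to 17.31 in TL, 16.39 to 16.44 in DH and 16.82 to 16.86 in DL. That sum had the order of the brightest DCN probe, whereas COL1A1 and the brightest COL1A2 probe were lowest in TL, at 6.05 and 13.85. The 4 surfactant genes of alveolar type II cells summed to 19.67 to 19.69 in TH and to 19.91 or more in the other groups. SFTPC and the brighter SFTPA1 probe were also lowest in TH, whereas SFTPB was lowest in DL, at 15.11, and SFTPD in TL, at 14.04. No probe that stood for a gene of these 4 lists was at background on any array. The erythroid list was left with HBB alone, which had means of 11.26 (TH), 11.40 (TL), 10.31 (DH) and 10.28 (DL), and no airway marker of the list had a named probe. The 4 skeletal muscle genes summed to 12.59 in TH, 12.03 to 12.07 in TL, 12.55 to 12.62 in DH and 11.55 to 11.58 in DL. That sum followed CKM, whereas both ACTA1 probes were lowest in DH. At ACTA1 A_72_P127051, TH minus DH was 2.69. The probe that stood for 1 of these genes was not above background on DH replicate 1.

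For each of the 10 genes, the named probe with the most similar values over the 8 arrays was sought among 5454 probes of other genes, by Pearson's r with its brightest probe. The arrays form 4 groups of close pairs, so that r rests on few group means and is given as a description. The closest probes were those of C6 for VEGFA (0.998), LOC100737869 for FLT1 (0.999), SMAD1 for KDR (0.997), LDB2 for TEK (0.997) and CFL2 for ANGPT1 (0.9996). For the rest they were BMP4 for ANGPT2 (0.995), KATNAL1 for PECAM1 (0.998), VCL for CDH5 (0.996), GATA3 for VWF (0.998) and FZR1 for ERG (0.997).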

How the data were processed

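Lung RNA of 8 pigs was measured on 8 Agilent 1-colour arrays, 2 in each of 4 groups taken from the sample labels. Spot intensity was extracted by the authors with Agilent Feature Extraction, version 10.7.3.1 per the file headers (9.1 per the labels), and deposited for each spot a median signal, a local background, a processed signal and flags. A second deposited file holds the authors' log2 values, for which the methods name RMA. Its columns share 1 distribution with a median of 7.40, and its values rank as the processed signals do on each array (Spearman's rho of at least 0.999996); its exact steps are not given in the sources used here. The number of arrays limits the precision.

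Probes were named from the study's tables (3655 probes) or from a RefSeq target (2683 of 3250 matched the RefSeq gene table of the Sscrofa11.1 assembly), and 5473 of the 34406 tested probes had a symbol. The study's tables were held in part, so that further probes of these genes may be unnamed here. The array's build is not given, and no coordinates are used. limma 3.58.1 in R 4.3.3 fitted breed, altitude and their interaction to the log2 values of the 34406 probes that passed the background flag on 1 array or more; p-values were adjusted by Benjamini-Hochberg and the threshold was 0.0001. The fit was checked on simulated data. A gene was described at its brightest probe and every other probe beside it. Alternatives changed the values (raw signals with normexp, local background, 75th percentile scaling), filter, threshold, variance model, blocks and arrays. Of the list of other endothelial genes, the 3 probes with the smallest adjusted p of the interaction in each direction were named. An item of the planned marker lists is not reported here. The genes and lists were chosen with earlier results of these data known. Figures were drawn with matplotlib 3.10.9.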

Additional observations from a re-analysis of the deposited data

Results flagged for a closer look

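At 6 probes the altitude difference in Tibetan pigs differed from that in Duroc pigs by the test of the interaction itself in limma's two-way fit (adjusted p below 0.0001). On the log2 scale, Tibetan minus Duroc, these interactions were 1.72 at KDR, 1.56 at ANGPT1, 1.38 at ANGPT2, 0.75 at CDH5 A_72_P310398, 0.67 at FLT1 and -1.02 at TEK A_72_P059326. KDR and ANGPT2 were higher at high altitude in Tibetan pigs and lower in Duroc pigs. ANGPT1 was lower in both, by more in Duroc pigs. At the other CDH5 probe and the other TEK probes the interaction was not called. In all 6 the interaction is the same contrast as the slide and as resident against migrated pigs, so that these cannot be told apart.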

How the results depend on the processing

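Counts of called probes follow in the order breed effect, altitude effect, interaction, TH minus TL, DH minus DL, TH minus DH and TL minus DL, beside 9, 10, 6, 10, 1, 1 and 9 as reported. At a threshold of 0.01 they were 19, 15, 14, 19, 12, 15 and 17. Of all 34406 tested probes, 21151, 20670, 21910, 23261, 16162, 15289 and 23660 were called in the same order. At 0.05 they were 19, 18, 16, 19, 15, 18 and 18, against 71.6%, 70.8%, 73.7%, 76%, 60.2%, 58.9% and 77.4% of all tested probes. With an intensity trend in limma they were 16, 13, 9, 14, 8, 12 and 12. Over all 34406 tested probes that fit called 13185, 12863, 13657, 16051, 7836, 7119 and 16251. In the ANOVA without moderation they were 6, 5, 3, 7, 1, 0 and 6, against 5638, 5265, 5663, 8689, 929, 1190 and 8608 of all tested probes. Among the 24775 probes above background on all 8 arrays they were 15, 12, 7, 13, 8, 9 and 12. All of these probes gave 12017, 12118, 12155, 14588, 6804, 6203 and 14655 calls. Among the 31689 above background on both arrays of a group they were 10, 11, 7, 12, 4, 2 and 9. There, all probes gave 10552, 10246, 10982, 13871, 4505, 4084 and 14001 calls. With no filter they were 8, 7, 5, 10, 1, 0 and 8, against 8250, 7903, 8620, 11730, 2343, 2332 and 11916 of 43603. With 75th percentile scaling they were 14, 10, 8, 12, 2, 3 and 15, against 33.1%, 30.4%, 32.5%, 42.3%, 11.5%, 10.2% and 44.2% of all tested probes. From raw signals with normexp they were 3, 4, 4, 5, 1, 0 and 6. All 34406 probes gave 6705, 5989, 7256, 10162, 1057, 1520 and 10280 calls there. With local background and an offset of 50 they were 6, 10, 4, 12, 3, 2 and 8. All probes then gave 9912, 9905, 9971, 12878, 3813, 3861 and 12752 calls. With 1 array left out, a group is left with 1 array. Calls then became fewer in every comparison, over all tested probes as well as over the 19. Leaving out outlier spots and quantile normalizing the processed signals changed no count.

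The replicate numbers of the labels did not pair the samples (correlations of deviations between groups from -0.04 to 0.09), and with the replicate block the counts were 2, 3, 0, 4, 0, 0 and 5. Over all 34406 tested probes that fit called 3697, 2888, 4094, 7141, 0, 208 and 7191. Slide as a block left the breed and altitude counts at 9 and 10, against 9424 and 9041 of all tested probes. It could not be fitted with the interaction or the differences between groups. By gene, the brightest probe was called for 5, 4, 4, 4, 1, 1 and 6 genes, any probe for 8, 5, 6, 6, 1, 1 and 8, and all probes for 4, 3, 4, 3, 1, 1 and 4. Naming by a platform annotation was not run. The list of other endothelial genes, with 46 probes, had 23 called interactions under 75th percentile scaling against 14. Of all tested probes, 32.5% were called under that scaling. Under the deposited values 14.9% were called higher and 13.5% lower.

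Under 75th percentile scaling these single values changed sign. In TH minus TL they were 0.30 at CDH5 A_72_P077856, 0.18 at PECAM1 A_72_P218027, 0.011 at TEK A_72_P326593 and 0.55 at VWF; the altitude effect was 0.12 and 0.051 at the first 2 probes, 0.43 at VWF and -0.054 at KDR. The interaction was 0.36 at CDH5 A_72_P077856, 0.50 at PECAM1 A_72_P077376, 0.25 at PECAM1 A_72_P218027, 0.20 at TEK A_72_P209977, 0.45 at TEK A_72_P326593, 0.084 at VEGFA A_72_P414353 and 0.25 at VWF. DH minus DL was 0.0094 at CDH5 A_72_P310398, 0.094 at FLT1 and 0.18 at PECAM1 A_72_P288169, and TL minus DL was 0.17 at ERG A_72_P204132. DH minus DL of FLT1, near 0, was also 0.031 with local background, 0.062 from raw signals and -0.042 to 0.0030 without single arrays, above 0 without DL replicate 1. The altitude effect of PECAM1 A_72_P288169 was -0.016 with local background and -0.015 from raw signals, and the interaction of PECAM1 A_72_P077376 was -0.044 to 0.025 without single arrays, with 0.0041, 0.0062 and 0.025 without DL, TH or TL replicate 2. ANGPT2 minus ANGPT1 was 0.86 with local background and 0.91 to 0.99 without single arrays. The cause of these changes was not tested.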
